A study of Mus musculus with 20 samples.

Results

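Small nucleolar RNA (snoRNA) genes were followed across 20 RNA sequencing libraries of mouse aortic endothelium. The genes were the rows of the deposited FPKM table (fragments per kilobase of gene per M, mega, of assigned reads) whose symbol begins with Snord or Snora and a digit and whose mean over the 20 libraries was at least 0.5 FPKM. This gave 60 genes of 63 so named and of 32081 rows in all, 42 of the box C/D class (Snord) and 18 of the box H/ACA class (Snora). The genes were thus chosen by that mean, so their overall level is a description. The 3 genes just inside the limit had mean FPKM of 0.511 (Snora36b), 0.821 (Snord110) and 0.886 (Snord11), and the 3 just outside had 0.464 (Snord82), 0.339 (Snora5c) and 0.274 (Snord90).

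All mice were female Apoe-/- animals of strain B6.129P2-Apoetm1Unc/J, which lack apolipoprotein E in every tissue, and all had undergone 5/6 nephrectomy, a surgical model of chronic kidney disease, at 9 weeks of age. A single retro-orbital injection followed 7 weeks after surgery and RNA was collected 1 week later. The 5 groups of 4 mice received HDL + LNA92a + LNA489 (the dual group), HDL + LNA489, HDL + LNA92a, HDL (high-density lipoprotein, 4 mg) or saline. LNA92a and LNA489, locked nucleic acids that block miR-92a and miR-489, were given at 20 mg/kg each and 40 mg/kg together in the dual group, and no group received an inhibitor without HDL. Hereafter "LNA489" and "LNA92a" mean those inhibitors given together with HDL, and each library carries its group and its animal's number. The groups allow HDL to be compared with saline, and HDL given with an inhibitor to be compared with HDL alone. A changed action of HDL and an effect of the inhibitor itself cannot be told apart.

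SnoRNAs are short nuclear RNAs that guide chemical modification of ribosomal RNA. Box C/D snoRNAs direct 2′-O-methylation through the enzyme fibrillarin (Fbl), and box H/ACA snoRNAs direct pseudouridylation through dyskerin (Dkc1). In mammals most are cut out of introns of other genes, many of which encode ribosomal proteins or translation factors, while a few such as U8 (Snord118) and U13 (Snord13) have their own promoters. Snord32a, Snord34 and Snord35a lie in introns of the ribosomal protein gene Rpl13a and are known from lipotoxic stress in rodent cells.

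The sequences of 5 genes on which results turn are given as DNA, from the transcripts of GENCODE M21 on build GRCm38. Capitals mark the letters searched. In box C/D genes these were TGATGA (box C) within the first 36 bases and CTGA (box D) within the last 20, and in box H/ACA genes they were ACA exactly 3 bases before the 3′ end, all on the gene's own strand. Snord15a lies in an intron of Rps3 at chr7:99482785-99482932 (minus strand), Snord17 in an intron of Snx5 at chr2:144265979-144266216 (minus strand), and Snora21 in an intron of Rpl23 at chr11:97781639-97781775 (minus strand). Snord104 at chr11:106500993-106501062 (plus strand) and Snora57 at chr19:8888538-8888685 (minus strand) lie in no annotated host gene on their strand.
Snord15a: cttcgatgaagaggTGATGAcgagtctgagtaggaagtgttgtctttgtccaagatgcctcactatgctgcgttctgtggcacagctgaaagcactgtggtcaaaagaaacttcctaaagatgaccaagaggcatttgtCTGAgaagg
Snord17: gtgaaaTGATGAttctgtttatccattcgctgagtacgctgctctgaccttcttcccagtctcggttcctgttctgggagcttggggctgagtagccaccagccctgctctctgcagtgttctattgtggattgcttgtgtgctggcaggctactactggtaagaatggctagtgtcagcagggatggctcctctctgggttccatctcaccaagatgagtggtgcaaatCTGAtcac
Snord104: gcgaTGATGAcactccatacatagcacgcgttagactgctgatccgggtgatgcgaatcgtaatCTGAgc
Snora57: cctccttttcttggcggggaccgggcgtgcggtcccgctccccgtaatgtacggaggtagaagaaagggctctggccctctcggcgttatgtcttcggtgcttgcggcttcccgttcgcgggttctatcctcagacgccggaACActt
Snora21: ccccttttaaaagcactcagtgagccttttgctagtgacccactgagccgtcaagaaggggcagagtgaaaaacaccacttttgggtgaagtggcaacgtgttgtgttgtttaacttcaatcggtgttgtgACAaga

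Both C/D motifs were found in 27 of the 42 Snord genes (64.3%) and the ACA motif in 15 of the 18 Snora genes (83.3%). Among all 1507 snoRNA genes of the annotation, 20.8% held both C/D motifs and 18.3% the ACA motif. Among 3714 other small RNA genes of 60 to 250 bases (snRNA, misc_RNA and miRNA), the shares were 0.0539% and 2.37%. Snord13 is the U13 RNA, which in human cells pairs with 18S ribosomal RNA and assists its acetylation. In human cells Snord15a, Snord17, Snord104 and Snora21 are listed as guides for 28S ribosomal RNA and Snora57 for 18S.

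The deposited lengths equalled the annotated transcript lengths for all 60 genes and ran from 64 to 238 bases. Box C/D genes had a median of 80.5 bases and box H/ACA genes of 132 bases. By position 46 of the 60 lay within an intron of a host gene, 9 overlapped a host exon and 5 had no host (Snord13, Snord104, Snora57, Snora17 and Snord118). Ribosomal protein genes hosted 16. Whether the counting used strand was not given in the sources used here, so reads of the 9 exonic genes cannot be separated from their hosts'. These are Snora28 (Eif5), Snora33 and Snord100 (Rps12), Snord19 and Snord69 (Gnl3), Snora2b (Kansl2), Snord42b (Rpl23a), Snord66 (Eif4g1) and Snord111 (Sf3b3). Genes that share sequence with other small RNA genes are uncertain too. Windows of 30 bases were shared by 14 of the 60, among them Snora30 (53.5% of its 30-base windows), Snora33 (38.0%), Snora57 (31.1%) and Snora21 (30.6%), while Snord15a, Snord17, Snord13 and Snord104 shared none. Snord33 and the Gas5 set (Snord44, Snord47 and Snord74 to Snord81) were not among the 63 Snord and Snora genes of the FPKM table, so they have no values here.

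Whole reads could be recovered from FPKM, which gave 11.6 to 21.4 M assigned reads and 17378 to 23365 genes with a read per library. Of 10 endothelial marker genes none was at 0 in all 20 libraries. Their summed FPKM ran from 57.4 to 2009 within the HDL group alone, so the share of endothelial RNA differed widely between mice. In bulk tissue, fewer cells of a type and less RNA per cell cannot be told apart. Each library came from a mouse of its own, and floors from reads cover counting error only, since the reads carry no molecular identifiers. The labels name no batch or date.

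The 60 genes together held 14690 reads in the 20 libraries, and Snord15a and Snord17 held 44.5% of them. Box C/D genes took 68.8% of these reads, 53.7% to 77.1% in single libraries. Mean FPKM over all libraries was 57.5 for Snord15a, 55.1 for Snord17, 21.2 for Snord13, 20.4 for Snora28, 14.4 for Snord104, 14.1 for Snora23, 11.7 for Snora57, 9.83 for Snora47, 8.41 for Snora31 and 8.00 for Snord53. The median of the 60 was 3.15 FPKM. The 5 genes without a host had a median of 11.7 FPKM, and the 16 hosted by ribosomal protein genes one of 3.54 FPKM.

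Detection was uneven. Only Snord15a, Snord17, Snora28 and Snora31 had a read in all 20 libraries, and 30 of the 60 genes had one in at most 10. Between 13 genes (LNA489 7) and 53 genes (HDL 11) had a read in a library. Of the 1200 gene and library values 550 (45.8%) were 0. The 48 snoRNA genes with a mean of at most 10 reads had 55.1% of values at 0, against 49.7% among 2283 other genes with a mean of 0.5 to 10 reads and at least 0.5 FPKM. Of the 650 values above 0, 33 (5.08%) were a single read and 519 (79.8%) were 5 reads or more. In the 48 genes 6.73% of such values were a single read and 72.4% were 5 reads or more, against 9.28% and 66.5% in the 2283 other genes. One read of a gene of 70 bases is worth 0.936 FPKM at the mean library depth.

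**Figure D1:**
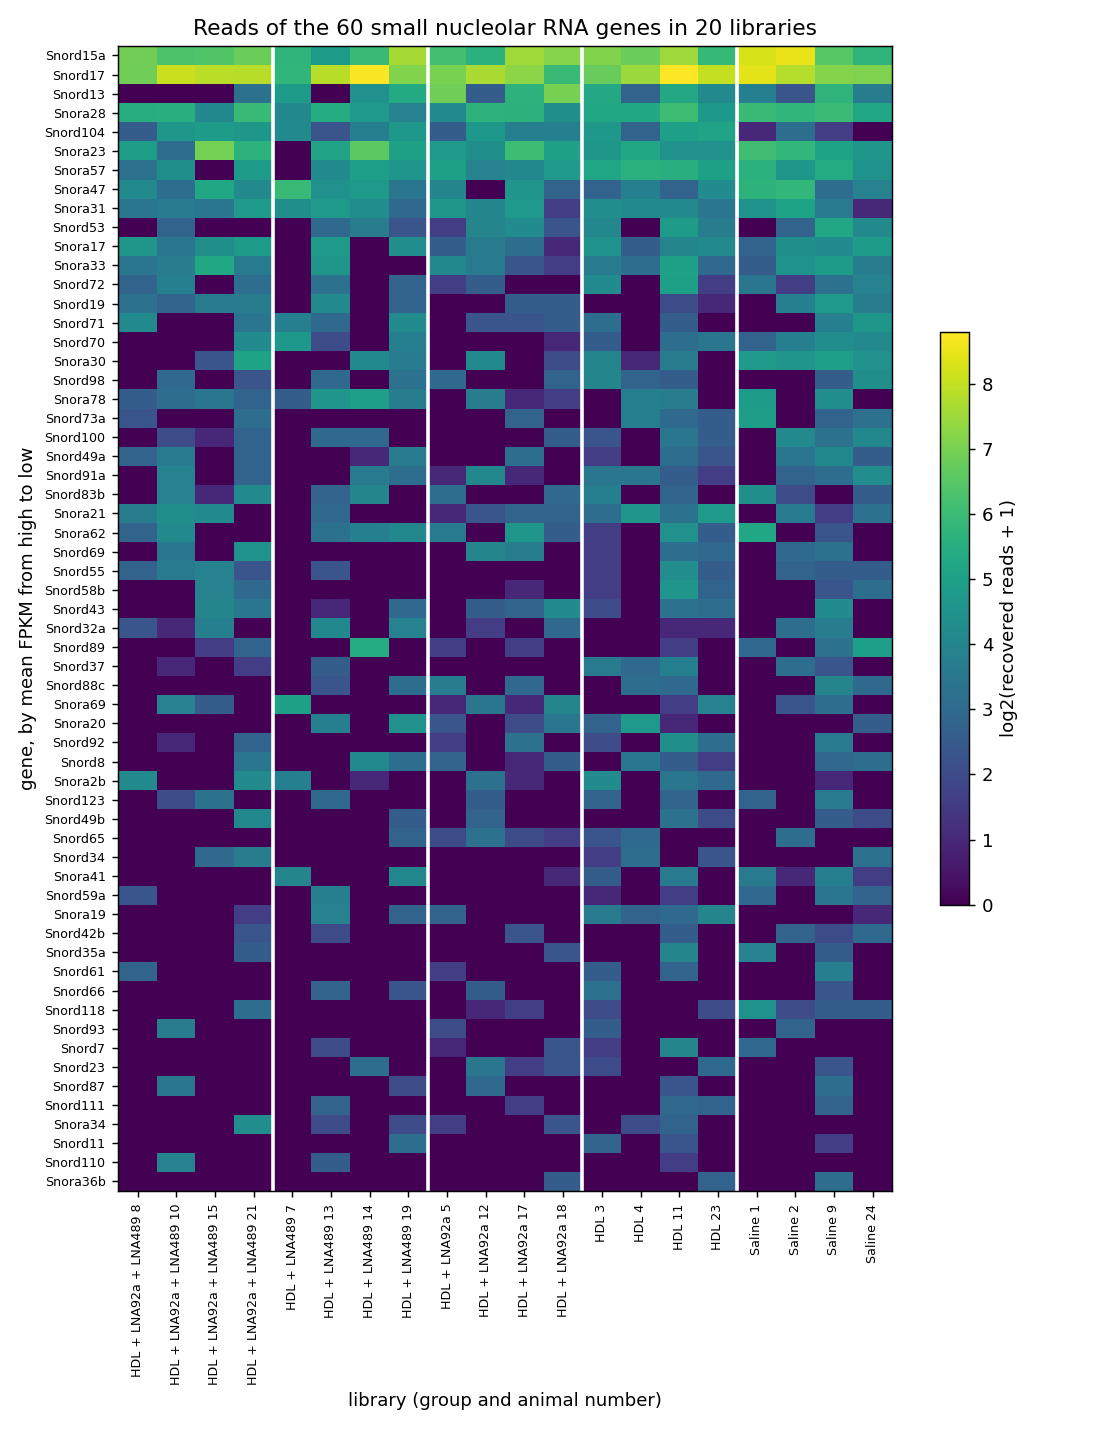
Reads of the 60 snoRNA genes (rows, by mean FPKM) in the 20 libraries (columns, 4 mice of each group), as log2(reads + 1) in color. Snord15a and Snord17 are bright in every library, and the rows toward the bottom are mostly dark.

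The deposited table of variance-stabilized log2 values, on which group differences were tested, held 29 of the 60 genes (18 box C/D and 11 box H/ACA). These are the genes with more reads, with a mean of at least 3.95 per library. The other 31 had means of at most 5.30 reads and were tested only by voom on recovered reads. A gene was called where its p, adjusted by Benjamini-Hochberg, was under 0.05 over all 16848 genes tested with limma. On the variance-stabilized scale a step from 10 to 20 normalized reads is 0.4 and one from 100 to 200 is 0.81, so differences of weak genes are compressed.

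No snoRNA gene was called in any comparison between treatment groups. With limma 0 of 29 were called in each, beside 0 of 16848 genes (0.0%), and voom on all 60 also called 0. By unadjusted p under 0.05, limma gave 2 genes for HDL against saline (1.67% of all genes), 2 for LNA92a against HDL (3.53%), 3 for LNA489 against HDL (3.79%) and 3 for the dual group against HDL (2.47%). Voom on the 60 genes gave 3 for HDL against saline (2.04% of 18112 genes), 2 for LNA92a (2.88%), 7 for LNA489 (4.22%) and 5 for the dual group (3.42%), each of these against HDL. The smallest adjusted p of a snoRNA gene with limma was 0.867, in LNA92a against HDL. The values that follow are therefore those of the genes with the smallest p, and none of the differences passed the test. The 3 inhibitor comparisons share the 4 HDL mice.

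In HDL mice against saline mice the smallest p belonged to Snord104. Its FPKM was 28.9, 5.39, 28.96 and 37.0 in HDL mice 3, 4, 11 and 23, against 0.858, 7.74, 1.64 and 0 in saline mice 1, 2, 9 and 24. Of the HDL values 3 were above every saline value and 1 lay within the saline range. The HDL libraries held 95 Snord104 reads in all and the saline libraries 11. The difference was 1.05 ± 0.29 (SE) on the variance-stabilized log2 scale, with adjusted p = 1.00 by limma. The 3 groups given an inhibitor with HDL averaged 15.7 ± 7.26 FPKM (dual), 14.0 ± 10.2 FPKM (LNA489) and 14.4 ± 5.88 FPKM (LNA92a), and the HDL and saline groups averaged 25.1 ± 13.7 and 2.56 ± 3.52 FPKM (SD, n = 4 each).

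Snora30, which sits in an intron of the chromatin remodeller gene Srcap, was the one tested snoRNA gene whose HDL and saline values did not overlap, where 0.973% of all genes did not. It had 9.34, 0.483, 6.24 and 0 FPKM in HDL mice, against 12.0, 12.0, 13.3 and 12.8 FPKM in saline mice. The HDL mice were lower and scattered, and the 4 saline mice were alike. The difference was -0.85 ± 0.40 (SE), with adjusted p = 1.00 by limma. Others on the lower side were Snord19 (-0.70 ± 0.34) and Snora47 (-0.57 ± 0.42), and on the higher side Snora21 (0.64 ± 0.32) and Snord43 (0.32 ± 0.38). Over the 29 tested genes 13 differences were positive and the median was -0.055, against 0.028 for all genes. By voom on all 60 genes 33 were positive with a median of 0.23, against 0.049 for all genes.

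In LNA92a mice against HDL mice the widest values were those of Snord13. It had 96.0, 2.71, 40.5 and 103 FPKM in LNA92a mice 5, 12, 17 and 18, against 30.4, 3.63, 25.3 and 12.5 FPKM in HDL mice 3, 4, 11 and 23. The 3 highest were LNA92a mice, while LNA92a 12 was below every HDL mouse. The difference was 1.20 ± 0.56 (SE), with adjusted p = 0.867 by limma, and 0.67 with the Rn18s-rs5 share as a covariate. Snord55, in human cells a guide for 28S ribosomal RNA, had no read in the 4 LNA92a libraries, against 2.05, 0, 16.3 and 4.83 FPKM in HDL mice. A floor of 3 reads per library averages 2.95 FPKM here, and the HDL mean was 5.78 FPKM. That mean rests largely on 1 HDL mouse at 16.3 FPKM, and the HDL values of 2.05 and 0 FPKM lay below the floor. These values therefore set no bound on the fold difference. On the variance-stabilized scale it was -0.62 ± 0.25 (SE), with adjusted p = 0.867 by limma. None of the 29 tested genes separated the groups, where 2.22% of all genes did. Other values were Snora23 (0.54 ± 0.48) and Snora62 (0.45 ± 0.47) on the higher side and Snord70 (-0.56 ± 0.34) and Snord72 (-0.54 ± 0.35) on the lower side. The 29 differences had a median of -0.045, against -0.056 for all genes, and 14 were positive. By voom on all 60 genes 29 were positive with a median of -0.11, against -0.055 for all genes. The median over all genes was itself shifted, to -0.47, on log2(FPKM + 0.1).

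In LNA489 mice against HDL mice the 3 smallest p belonged to box H/ACA genes. Snora21 had 0, 3.33, 0 and 0 FPKM in LNA489 mice 7, 13, 14 and 19, against 4.73, 10.6, 4.44 and 14.5 FPKM in HDL mice. Every LNA489 mouse was below every HDL mouse. The difference was -1.06 ± 0.32 (SE), with adjusted p = 0.920 by limma. Snora57 had 0, 7.93, 10.2 and 12.0 FPKM in LNA489 mice, against 19.7, 20.4, 21.0 and 16.0 FPKM in HDL mice (-0.87 ± 0.36, adjusted p = 0.920, limma). Its groups did not overlap either, and 1.54% of all genes did not. Snora33 (-0.78 ± 0.34) is uncertain, because it overlaps an exon of Rps12. On the higher side stood Snora78 (0.64 ± 0.37), Snord32a (0.47 ± 0.36) and Snora47 (0.51 ± 0.42). Of the 29 tested genes 22 were negative with a median of -0.24, where all genes had a median of -0.047. By voom on all 60 genes 48 were negative with a median of -0.98, against -0.080 for all genes. LNA489 7, with reads in 13 of the 60 genes, was the library with the fewest.

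In dual mice against HDL mice Snora57 had the smallest p. It had 4.59, 6.33, 0 and 11.3 FPKM in dual mice 8, 10, 15 and 21, against the HDL values of 16.0 to 21.0 FPKM. The groups did not overlap (1.88% of all genes did not), and the difference was -1.05 ± 0.36 (SE), with adjusted p = 0.998 by limma. Both inhibitor comparisons set Snora57 against the same HDL mice, and the saline mice, with 11.0 to 19.5 FPKM, overlapped all other groups. Snord19, from the gene of the nucleolar protein Gnl3, was the other snoRNA gene without overlap. It had 8.93, 3.70, 7.36 and 9.76 FPKM in dual mice, against 0, 0, 2.67 and 1.00 FPKM in HDL mice (0.67 ± 0.34, adjusted p = 0.998, limma). It overlaps an exon of Gnl3 and is uncertain. The other values were Snord53 (-0.84 ± 0.37) on the lower side and Snord32a (0.33 ± 0.36) and Snord55 (0.20 ± 0.25) on the higher side. Of the 29 tested genes 19 were negative with a median of -0.21, against -0.030 for all genes. By voom on all 60 genes 49 were negative with a median of -0.81, against -0.050 for all genes.

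Snord13 had the smallest p across the 5 groups, without passing the test. In dual mice it had 0, 0, 0 and 5.35 FPKM (9 reads in all), in LNA489 mice 16.6, 0, 10.1 and 29.7 FPKM and in saline mice 7.51, 2.61, 28.7 and 9.13 FPKM. The highest dual value, 5.35 FPKM, lay within the range of each other group. The dual group against HDL gave -1.27 ± 0.56 (SE), with adjusted p = 0.998 by limma. An F-test over the 5 groups gave the smallest p of the snoRNA genes to Snord13, followed by Snord104 and Snord55, each with adjusted p = 1.00 by limma. By unadjusted p under 0.05 this F-test gave 4 of 29 snoRNA genes (1.68% of all genes). A comparison of the dual group with LNA92a, chosen after these values were seen, gave -2.46 ± 0.56 for Snord13 (adjusted p = 1.00, limma). Without LNA92a 12, the library with 2.71 FPKM, that difference was -3.13 with an adjusted p of 0.039 by limma. The library left out was the lowest of its group in Snord13, in a comparison itself chosen by its values, so this p is no test. LNA92a 5, 17 and 18, which remained, had Rn18s-rs5 shares of 18.2% to 22.4% and the smallest size factors, 0.521 to 0.646. With all libraries, 4 of 29 snoRNA genes, and 2.46% of all genes, had an unadjusted p under 0.05 in this comparison. The 4 were Snord13, Snord53 and Snora57 on the lower side and Snord55 on the higher side. Snord55 and Snord53 did not overlap between these groups (2.85% of all genes did not). Snord55 had 5.73, 6.52, 9.01 and 3.13 FPKM in dual mice, against no read in LNA92a mice. Snord53 had 0, 3.60, 0 and 0 FPKM in dual mice, against 2.21, 10.8, 19.0 and 4.41 FPKM in LNA92a mice. On the variance-stabilized scale, which divides by size factors, the dual values were all lower, while in FPKM LNA92a 5 was below dual 10.

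Differences of marker genes of other cell types were also wide in these comparisons, with 0 called. In the dual group against LNA92a the 7 cardiac and striated muscle markers were all negative (median -2.81) and 5 had an unadjusted p under 0.05. Of 9 macrophage markers 8 were positive (median 1.502), with an unadjusted p under 0.05 in 5 of the 9, and all 5 adrenal cortex markers were positive (median 2.65). Summed macrophage FPKM ran from 3108 to 8805 in dual mice and from 626 to 2152 in LNA92a mice. In the dual group against HDL the macrophage median was 1.38 (9 of 9 positive) and the adrenal median 1.80 (5 of 5). In LNA92a against HDL the muscle median was 4.01 (7 of 7) and the adipocyte median 2.19 (8 of 8). In LNA489 against HDL the medians were 2.02 for muscle (7 of 7), 1.60 for adipocyte (8 of 8), 1.55 for fibroblast (6 of 6) and -0.63 for endothelial markers (1 of 10). In HDL against saline they were -1.60 for muscle (1 of 7), -1.32 for adrenal (0 of 5), -1.15 for macrophage (0 of 9) and 1.32 for B cell markers (6 of 6). None of these markers was at 0 in all 20 libraries. The part of these cells in the snoRNA differences was not tested.

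**Figure D2:**
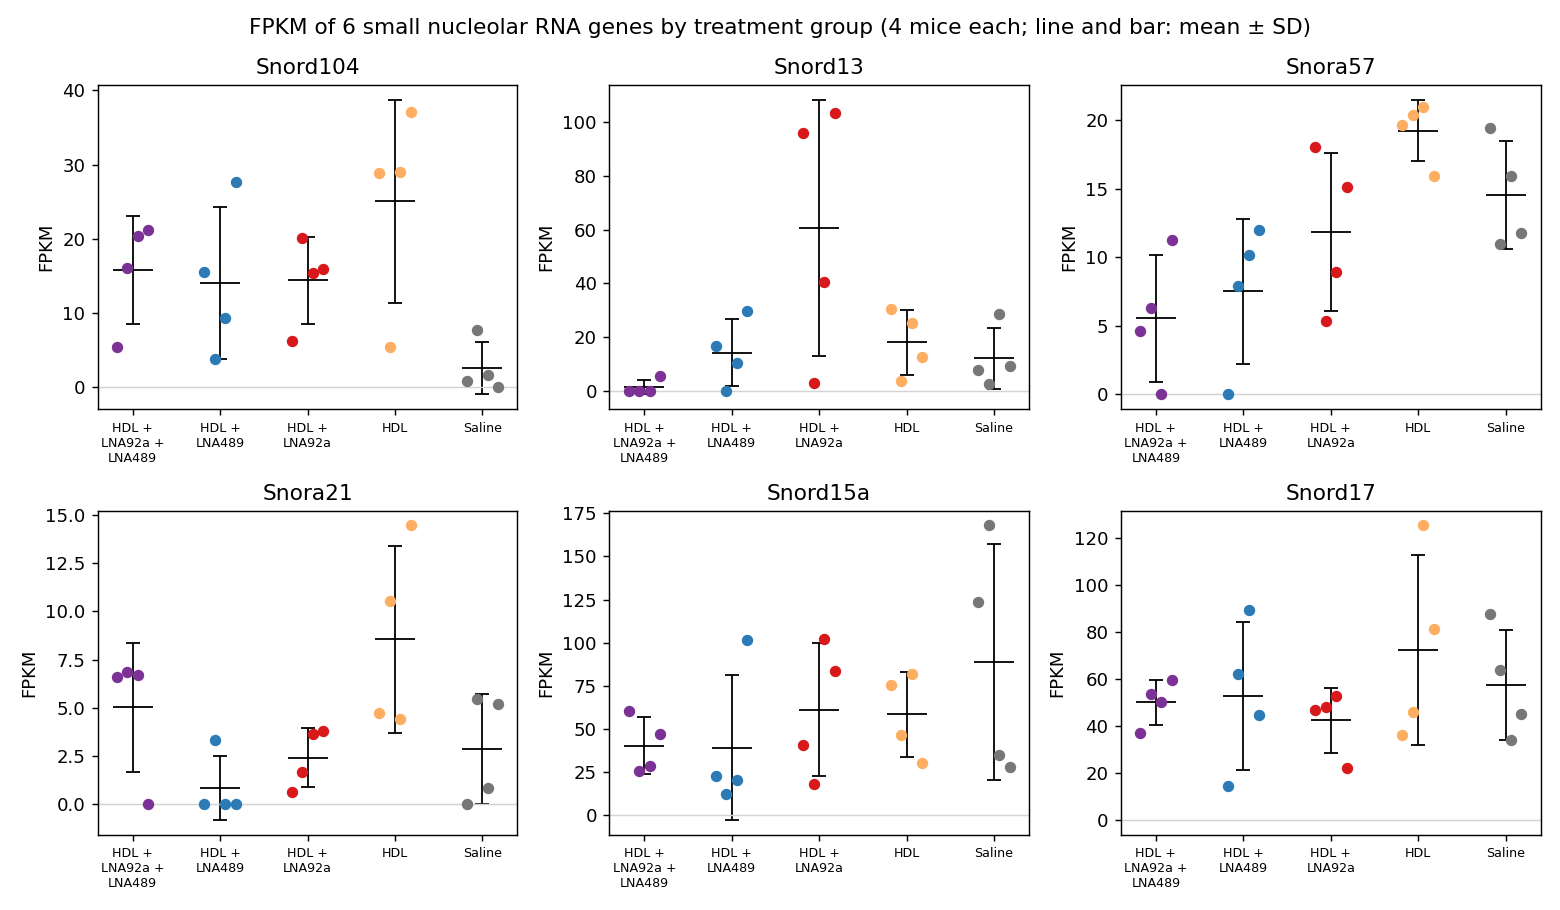
FPKM of 6 snoRNA genes in the 5 treatment groups (points: single mice, 4 per group; horizontal line and bar: mean ± SD). HDL lies above saline for Snord104 in 3 of 4 mice, the dual group is at or near 0 for Snord13, and Snora57 is lower in dual and LNA489 mice than in HDL mice without overlap.

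The sum of all 60 genes was spread widely within groups. Per M assigned reads other than those of Rn18s-rs5 it was 42.2 ± 10.7 in dual mice, 45.0 ± 16.0 in LNA489 mice, 56.4 ± 17.7 in LNA92a mice, 62.0 ± 21.2 in HDL mice and 65.6 ± 15.6 in saline mice (SD, n = 4 each). The dual range, 33.3 to 57.8, overlapped the saline range, 50.96 to 79.2. The Rpl13a snoRNAs were sparse. Snord32a had reads in 11 libraries and Snord34 in 6, with none in any LNA489 or LNA92a library, and Snord35a in 5. Snord34 stood at 2.31, 7.18, 0 and 4.36 FPKM in HDL mice. The host Rpl13a itself differed by -0.17 ± 0.25 (dual), -0.24 ± 0.25 (LNA489) and -0.23 ± 0.25 (LNA92a) from HDL on the variance-stabilized log2 scale.

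The proteins and hosts that snoRNAs depend on gave no call either. The list of box C/D core proteins (Fbl, Nop56, Nop58 and Nhp2l1, 4 of 5 in the file) had 0 of 4 called in each comparison. Nop58, a scaffold protein of these particles, was -0.44 ± 0.19 in dual mice and -0.43 ± 0.19 in LNA92a mice against HDL (limma, adjusted p = 0.998 and 0.867). The 4 box H/ACA core proteins had 0 calls, with Nop10 at 0.86 ± 0.49 in LNA92a mice against HDL. Assembly factors (11 tested), Cajal body guide RNAs (5), RNA polymerase I and its factors (20), ribosomal RNA processing factors (18) and other structural RNAs (18) had 0 calls in every comparison. Of 45 host genes tested 40 were positive in HDL against saline, with a median of 0.20 against 0.028 for all genes, and 0 were called. The same 45 had 16 positive in the dual group, 10 in LNA489 and 27 in LNA92a, each against HDL. Gas5 stood at -0.19 ± 0.21, -0.13 ± 0.21 and -0.24 ± 0.21 in these comparisons and Snhg1 at -0.32 ± 0.26, -0.39 ± 0.26 and -0.02 ± 0.26, in the same order.

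Rn18s-rs5 is a gene row that collects reads of 18S ribosomal RNA, the small-subunit RNA that many snoRNAs modify. It took 5.44% ± 2.76 of assigned reads in dual mice, 7.76% ± 3.66 in LNA489 mice, 16.5% ± 7.16 in LNA92a mice, 7.07% ± 2.71 in HDL mice and 8.02% ± 4.73 in saline mice (SD, n = 4 each). LNA92a 5, 17 and 18 held 19.1%, 22.4% and 18.2%, above all other libraries, while LNA92a 12 held 6.07%. Against HDL the exact 2-sided permutation p was 0.371 for the dual group, 0.771 for LNA489 and 0.0857 for LNA92a, and for HDL against saline it was 0.714 (adjusted over the 4 comparisons 0.743, 0.771, 0.343 and 0.771). The smallest p that 4 against 4 allows is 0.0286.

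Within groups, Snord15a was the one snoRNA gene called against this share. A slope on the log2 share, fitted with the 5 group means in the model, was 1.01 ± 0.15 (SE) per doubling, with adjusted p = 0.0116 by limma. It was 1 of 29 tested snoRNA genes and one of 18 genes called among 16847 (0.107%), with the 7th smallest p, and 17 of those 18 were positive. Voom gave 1.34 ± 0.20 with adjusted p = 0.0104 over 18111 genes, where 0.0883% were called, and 0.113% were called by voom over the genes of the log2 table. Across groups, the 5 libraries with the highest shares had 134 to 401 normalized reads of Snord15a (median 309). The 5 with the lowest shares had 38.6 to 64.0 (median 50.8). Snord15a had been picked by its slope on the same share, so these values describe that slope and add no support to it. How many of all genes separate these sets was not counted. The high set was LNA92a 5, 17 and 18 and saline 1 and 2. The low set was dual 10 and 15, saline 9 and 24 and LNA489 14. Group differences therefore enter this contrast, unlike the slope.

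The relation can be followed mouse by mouse in normalized reads of Snord15a. In dual mice they were 45.7 at a share of 3.25%, 61.4 at 3.37%, 87.8 at 6.05% and 134 at 9.11%. In LNA489 mice they were 38.6 at 4.16%, 23.1 at 5.31%, 57.1 at 9.56% and 237 at 12.0%. In LNA92a mice they were 41.3 at 6.07%, 223 at 18.2%, 134 at 19.1% and 324 at 22.4%. The mouse with the highest share of each of these groups held the most Snord15a. In HDL mice they were 148 at 4.79%, 59.5 at 5.00%, 120 at 8.01% and 155 at 10.5%. In saline mice they were 50.8 at 3.90%, 64.0 at 3.94%, 401 at 12.0% and 309 at 12.2%. HDL 3, with the highest share of the HDL group, also held the most of that group. The HDL mice were still the least ordered, with HDL 11 high at a low share. The saline mice fell into a low pair and a high pair.

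Leaving out LNA92a 12 ended the call, with a slope of 1.00 and an adjusted p of 0.0910. Without any other single library the gene stayed called, and without the 2 libraries farthest from the median share, LNA92a 5 and LNA92a 17, the slope was 1.01 with adjusted p = 0.0394. The LNA92a libraries with the 3 highest shares also had the fewest assigned reads, 11.6 to 12.1 M, and the smallest size factors, 0.521 to 0.646. Slopes of markers of other cell types went both ways, with 0 called. The median was -0.30 for macrophage markers (3 of 9 positive) and -0.32 for B cell markers (0 of 6 positive). Of 8 adipocyte markers 7 had a positive slope, with a median of 0.67, and all 7 cardiac and striated muscle markers were positive with a median of 0.64. Summed adipocyte FPKM ran from 71.4 to 2484 in dual, 158 to 2670 in LNA489, 568 to 3194 in LNA92a, 79.4 to 3434 in HDL and 56.5 to 1987 in saline mice. Summed muscle FPKM ran from 18.9 to 175, 32.1 to 918, 79.3 to 838, 23.8 to 55.8 and 9.57 to 508 in the same groups. None of these markers was at 0 in all libraries. The part of depth and of these cells in the Snord15a slope was not tested.

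**Figure D3:**
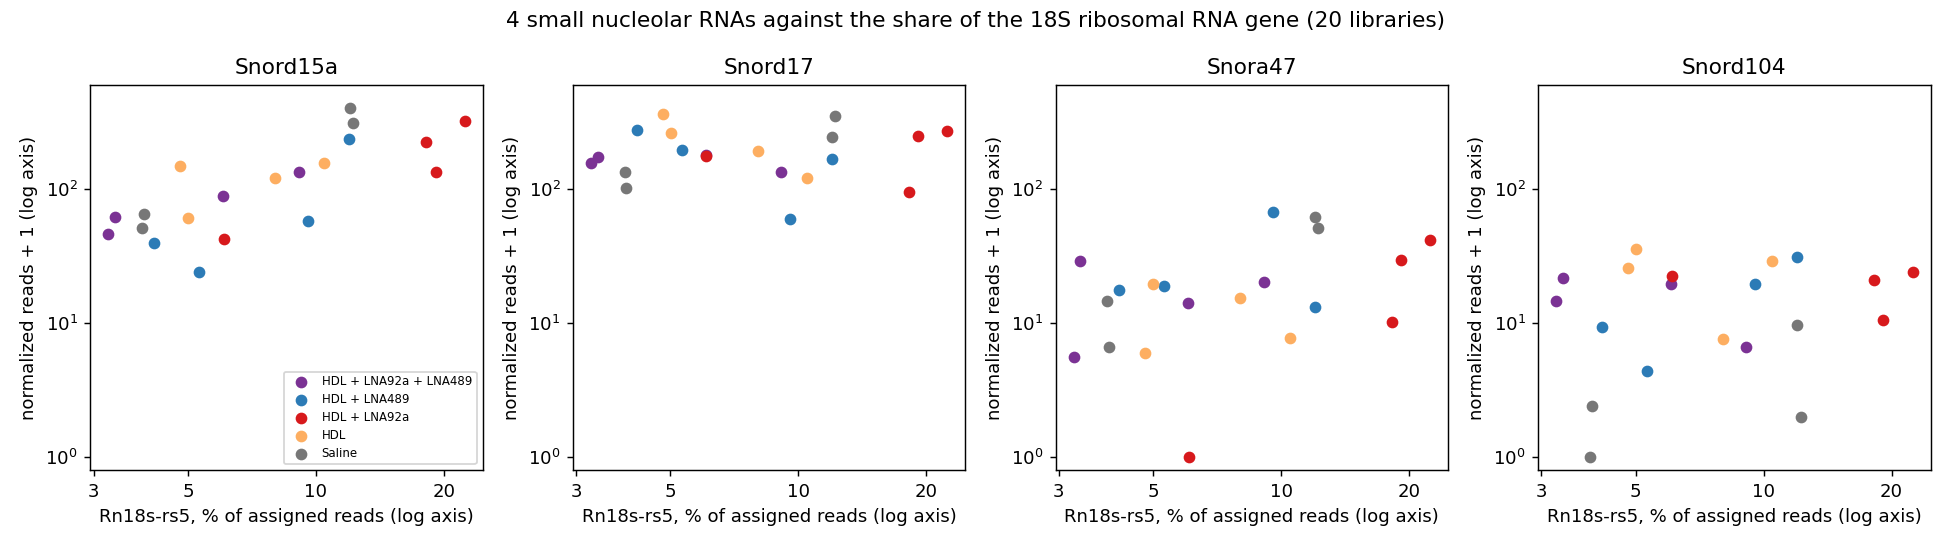
Normalized reads + 1 of Snord15a, Snord17, Snora47 and Snord104 (vertical, log axis) against the share of Rn18s-rs5 in assigned reads (horizontal, log axis) in 20 libraries colored by group. Snord15a, picked by its slope on this share, lies between 38.6 and 64.0 in the 5 libraries of lowest share. It lies between 134 and 401 in the 5 of highest share, and Snord17 shows no such slope.

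The other snoRNA genes did not follow Snord15a past the test. Snord17, its equal in level, had a slope of 0.00 ± 0.19 with normalized reads from 59.3 to 366, and its sign changed when single libraries were left out. Snora47 had 0.52 ± 0.17 (adjusted p = 0.707, limma), Snora31 0.33 ± 0.15 (adjusted p = 0.853, limma), Snord13 0.47 ± 0.25 and Snora28 0.18 ± 0.13. On the negative side, among genes with a mean of at least 10 reads, Snora33 had -0.12 ± 0.16 and Snora30 -0.05 ± 0.20. Snord104 had 0.09 ± 0.14. At an unadjusted p under 0.05 there were 3 of 29, all positive, against 5.76% of all genes. Over the 29 tested genes the median slope was 0.008, with 15 positive, and over all genes it was -0.029. Box H/ACA genes had a median of 0.18 (7 of 11 positive) and box C/D genes one of -0.006 (8 of 18 positive).

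**Figure D4:**
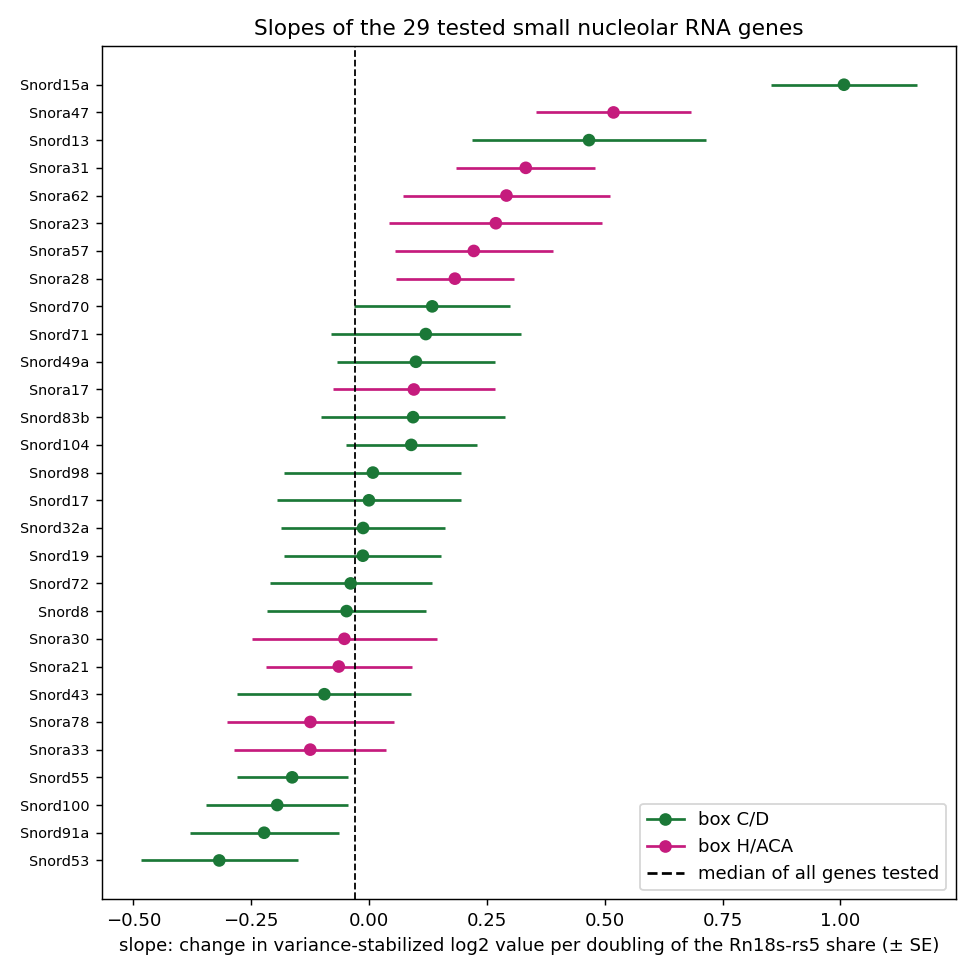
Slope of each of the 29 tested snoRNA genes on the log2 share of Rn18s-rs5 (point ± SE, variance-stabilized log2 units per doubling of the share), box C/D and box H/ACA in separate colors, with the median of all tested genes as a dashed line. Snord15a, at 1.01 ± 0.15, was the one of the 29 genes that was called.

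Among the other genes called against the share, Gm15564 (2.09 ± 0.12), Mir6240 (1.63 ± 0.12), Gm24187 (1.36 ± 0.15), Lars2 (1.84 ± 0.22), Mir6236 (1.63 ± 0.22) and Fkbp5 (1.39 ± 0.21) had smaller p than Snord15a. The ribosomal protein genes Rps27 (0.53 ± 0.09) and Rps14 (0.46 ± 0.09) were also called, and Calr, an endoplasmic reticulum chaperone, was the one that fell (-0.70 ± 0.12). The host of Snord15a, Rps3, had a slope of 0.00 ± 0.10. No gene of the core protein, assembly, ribosomal RNA transcription or host lists was called. The smallest p of these host genes was that of Snhg6 (0.44 ± 0.12, adjusted p = 0.422, limma), and of the other structural RNAs that of Rny3, a Y RNA (0.77 ± 0.19, adjusted p = 0.347, limma).

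In the few pairs compared, no correlation of a snoRNA gene with its host passed the test across libraries. Hosted genes with a mean under 10 reads were not compared. Of the pairs compared, Snora28 and Snora33 overlap a host exon. For the 8 genes with a host and a mean of at least 10 reads, with group means removed, Pearson's r over 20 libraries ran from -0.39 (Snora23 and Ipo7) to 0.30 (Snord15a and Rps3). Spearman's rho was -0.30 for Snora23 and 0.30 for Snord15a. The permutation p was 0.0917 for r and 0.199 for rho in Snora23, and 0.199 and 0.204 in Snord15a. None of the 8 passed after adjustment (smallest 0.629 for r and 0.590 for rho). Without the 2 libraries farthest from the host's median, r was -0.37 for Snora23 and 0.17 for Snord15a. Both values of a pair share a library and its depth.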

How the data were processed

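Total RNA of aortic endothelium, collected with qiazol and purified with a miRNeasy kit, was made into libraries with a Nugen Ovation kit, per the labels' protocols. The authors deposited FPKM with gene lengths for 32081 genes, and variance-stabilized log2 values for 20442 genes. The submitters' processing notes name cutadapt 1.16, STAR 2.5.3a, FastQC, featureCounts 1.15.29, DESeq2 1.18.1 and build GRCm38.p5 without roles. The strand setting, the annotation release and how multi-mapping reads were handled: not given in the sources used here.

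Reads were recovered from FPKM, length and 1 step per library: every value checked (100%) was whole to within 0.1. Size factors were medians of read ratios, taken over genes of the log2 table with reads in all libraries. In a separate check, factors fitted to the deposited log2 values let the reads give those values to within 0.001 for 99.997% of values. The fitted factors were used for no normalized read printed here. Normalized reads are reads divided by the median-ratio size factors. FPKM divides by all assigned reads, so libraries rich in ribosomal RNA have lower FPKM in other genes.

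Limma 3.58.1 (R 4.3.3) fitted 5 group means over 20 libraries to the log2 values of 16848 genes with a mean of at least 0.5 FPKM, with a variance trend and Benjamini-Hochberg adjustment. The slope model added the log2 share of Rn18s-rs5. All tests were 2-sided. Host correlations used 8 pairs and permutations. Alternatives were 2 pseudocounts, voom, other filters, array weights, centring, the Rn18s-rs5 share as a covariate and left-out libraries. The procedures were tested on simulated data in which only genes with more reads than most of the snoRNA genes were changed. That simulation does not show what change could be detected in the sparser ones. Genes are named by a rule: the 10 of highest mean, the 3 of smallest p in each direction per comparison, the 3 of smallest p in the F-test, the 5 in each slope direction with at least 10 reads, those beside the limit of 0.5 FPKM, the Rpl13a and Gas5 sets, and up to 4 genes per list. The genes, lists and tests were chosen with earlier results of these data known.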

Additional observations from a re-analysis of the deposited data

Results flagged for a closer look

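In 114 sets of 4 mice (22 named snoRNA genes by group, and the Rn18s-rs5 share), 17 held a mouse far from the other 3, by a gap, relative to the set's range, above Dixon's critical value. Chance marks about 1 in 20 sets, and sets with values of 0 are marked easily. None of these was in the Rn18s-rs5 share.

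Dual 21 stood apart in 4 genes, with 15.7 FPKM of Snora30, 12.8 FPKM of Snord70 and 5.35 FPKM of Snord13 on the high side and 0 FPKM of Snora21 on the low side. Dual 15 was high in Snora33 (14.6 FPKM) and Snora78 (3.97 FPKM), and dual 10 was high in Snord53 (3.60 FPKM).

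LNA489 13 was high in 4 genes, with 22.1 FPKM of Snora28, 12.1 FPKM of Snora33, 3.33 FPKM of Snora21 and 3.30 FPKM of Snord55. LNA489 19 was high in Snord15a (102 FPKM) and in Snord43 (5.01 FPKM), and it had the highest Rn18s-rs5 share of its group. LNA92a 18 was the one mouse of its group with a Snord70 read (0.989 FPKM).

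Saline 1 was high in Snora62 (14.9 FPKM) and saline 9 in Snord43 (9.58 FPKM), and saline 24 was low in Snora28 (21.8 FPKM). The causes were not tested.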

How the results depend on the processing

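No paired analysis was possible because each animal number occurs in a single group. In the 4 planned comparisons and the F-test, 0 genes and 0 snoRNA genes were called under every alternative run, and left-out libraries gave 0 to 0. In the added comparison of the dual group with LNA92a, left-out libraries gave 0 to 1 gene and 0 to 1 snoRNA gene, the 1 being Snord13 without LNA92a 12.

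The slope on the Rn18s-rs5 share called 18 genes, 36 on log2(FPKM + 0.1), 36 on log2(FPKM + 1), 30 with array weights and 8 without the 2 libraries of farthest share. Left-out libraries gave 7 to 20 genes and 0 to 1 snoRNA gene. The slope of Snord15a lay between 0.78 and 1.34 over 31 alternatives, adjusted p 0.00133 to 0.0910. The slope of Snora30 turned positive with array weights (0.0273) and without the 2 libraries of farthest share (0.0607), and lay between -0.13 and 0.12 with single libraries left out. Snord17 was at 0.0236 without the group term and between -0.111 and 0.0874 with libraries left out. Snord55 in the dual group against HDL ran from -0.0120 to 0.409. With libraries left out, the difference in the Rn18s-rs5 share ran from -2.32 to 0.456 percentage points for HDL against saline and from -0.727 to 1.88 for LNA489 against HDL.

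Of the 8 host pairs 0 passed under every alternative. On log2(FPKM + 0.1) r changed sign for Snora28 (0.0307), Snora31 (-0.0452), Snora47 (-0.17), Snord15a (-0.12) and Snord17 (0.0198). The causes were not tested. Depth limits the 31 genes outside the log2 table most, with a median mean of 2.15 reads.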

Other observations

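Other cell type markers were set against the share of Rn18s-rs5 in the same fit, and 0 of them were called. The median slope was 0.37 for adrenal cortex markers (5 of 5 positive), 0.30 for fibroblast markers (5 of 6), 0.10 for endothelial markers (7 of 10) and 0.03 for smooth muscle markers (4 of 6). It was -0.30 for macrophage markers (3 of 9 positive) and -0.32 for B cell markers (0 of 6), against -0.029 for all genes.

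Besides the 60 named genes, the FPKM table held 359 genes that the annotation classes as snoRNA under other names, 217 of them with a mean of at least 0.5 FPKM. Together they held 826 reads (LNA489 7) to 2487 reads (HDL 11) per library, and the 60 genes held 350 reads (LNA489 7) to 1281 reads (HDL 11). The same libraries were lowest and highest in both sets.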
